A study of Mus musculus with 7 samples.

Results

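The 10 genes described here are Id1, Id2, Id3 and Id4, Hes1, Hes5 and Hes6, and Hey1, Hey2 and Heyl, the families of helix-loop-helix factors best known as brakes on cell differentiation. They were picked by symbol, not by value, as 10 of the 22880 genes in a table of RNA levels from the mouse optic nerve. All 10 were present once in the table and all 10 passed the filter on low values. The study deleted Fasn, which encodes fatty acid synthase, in the oligodendrocyte (OL) lineage, the cells that make central myelin, and compared the RNA of mutant and control nerves at postnatal day 14 (P14). Mutants carried olig2cre, a Cre recombinase driven by the Olig2 promoter, together with FASN lox/lox, the floxed allele on both chromosomes. Every control here is labelled FASN lox/lox without Cre, although the study's methods also allow controls with a single floxed allele. By the labels the floxed allele is thus common to both groups, and the Cre allele is found in mutants alone. The loss of Fasn and the presence of Cre therefore cannot be told apart. There were 4 control and 3 mutant mice on a C57Bl/6 background, each giving 1 sample from both of its optic nerves. The nerve holds astrocytes, vessels, microglia and meningeal cells beside the OL lineage, and cells outside the reach of Olig2-driven Cre keep Fasn.

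Id proteins have a helix-loop-helix but no basic region for binding DNA, and they hold back other factors by dimerizing with the E proteins Tcf3, Tcf4 and Tcf12. Hes and Hey proteins do bind DNA and act as repressors, and Hes proteins repress their targets with Groucho/Tle corepressors. Id genes are classic targets of bone morphogenetic protein (BMP) signalling through Smad proteins, and Hes1, Hes5 and the Hey genes are classic targets of Notch signalling through the DNA-binding protein RBPJ. In the OL lineage, Id2, Id4, Hes1 and Hes5 are known to delay the step from OL precursor cell (OPC) to myelinating cell. Hes6 is the exception in the group, since it is known to oppose Hes1.

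The promoters of 3 members are shown: Id2 and Hes5, the members with the smallest p in each direction, and Hey2, which has the same Notch-type letters as Hes5. Hes5 and Hey2 each hold the core letters of the RBPJ site, TGGGAA on either strand, at 2 positions, and Id2 holds none. The stretches run 5′ to 3′ from 250 bases before to 50 after the start site of the RefSeq entry on GRCm38.p6. Capitals mark the RBPJ core in Hes5, at chr4:154960673-154960972 on the plus strand, and in Hey2, at chr10:30842734-30843033 on the minus strand. In Id2, at chr12:25096043-25096342 on the minus strand, capitals mark an E-box, CANNTG, the element that E proteins bind.
Hes5: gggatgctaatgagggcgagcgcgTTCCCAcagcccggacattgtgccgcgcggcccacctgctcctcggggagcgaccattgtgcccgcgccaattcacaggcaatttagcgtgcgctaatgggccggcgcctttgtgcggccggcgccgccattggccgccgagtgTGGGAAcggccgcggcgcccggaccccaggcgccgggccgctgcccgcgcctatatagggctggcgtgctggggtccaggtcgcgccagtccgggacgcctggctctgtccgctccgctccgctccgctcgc
Hey2: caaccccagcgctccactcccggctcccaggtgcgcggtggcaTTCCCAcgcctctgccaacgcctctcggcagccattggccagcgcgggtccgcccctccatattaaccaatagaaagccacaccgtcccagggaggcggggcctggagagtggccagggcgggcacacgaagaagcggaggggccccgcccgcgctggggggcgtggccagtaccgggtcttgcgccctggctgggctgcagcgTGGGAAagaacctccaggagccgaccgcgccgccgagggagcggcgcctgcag
Id2: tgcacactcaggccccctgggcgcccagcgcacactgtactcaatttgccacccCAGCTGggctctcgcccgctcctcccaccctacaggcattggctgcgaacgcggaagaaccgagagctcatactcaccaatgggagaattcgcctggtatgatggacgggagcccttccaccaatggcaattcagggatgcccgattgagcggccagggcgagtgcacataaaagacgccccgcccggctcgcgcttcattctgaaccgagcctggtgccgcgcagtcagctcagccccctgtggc

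Of 32851 mouse promoters of the same length, 25.6% held the RBPJ core and 3.79% held it at 2 or more positions. The E-box is less selective and was found in 72.3% of them. A promoter entry was found for 6 of the 10 members, and for Hes1, Hey1, Heyl and Id1 there was none. Among the other entries, Id4 held the RBPJ core once, both entries of Hes6 held none, and Id3 held neither of these motifs nor the N-box CACNAG, another Hes-type element, which 42.5% of promoters held. A match is a run of letters in this window and was not tested as a binding site. Beside the same number of RBPJ cores, mean Hes5 in mutants was 48.3% of that in controls and mean Hey2 was 99.3%.

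Fasn itself checked the labels. Its FPKM, a read level corrected for gene length and library size, was 210.3, 169.1, 211.1 and 228.3 in controls 1 to 4 and 69.3, 50.5 and 49.0 in mutants 1 to 3, or 27.5% of the control mean. Sequencing depth, recovered from the steps between low values, was 27452222 to 43462575 reads per sample. Nerves of the same genotype differed by more than counting noise. Across 13866 genes tested with limma, 2.62% (363) passed an adjusted p of 0.05 (Benjamini-Hochberg), 1.26% (175) higher and 1.36% (188) lower in mutants, so that 48.2% of the calls were higher. That share was 37.9% with median ratio scaling, 33.4% with quantile normalization and 27.8% with the normalized counts. It was 76.8% with the replicate number as a block, 54.6% with DESeq2 and 62.1% without mutant 2. The median log2 fold change of all genes tested was 0.05. Fold changes are those of log2(FPKM + 0.5), mutant minus control, and understate the change of genes at low levels.

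Of the 10 members, 1 passed the threshold: Id2, which was higher in mutants. No member passed as lower. At an unadjusted p under 0.05 stood 3 of the 10 members, Id2, Id4 and Hes5, against 24.4% of all genes tested. In 7 members the fold change was positive, against 60.1% of all genes, and the median over the members was 0.21. The median was 0.31 for the 4 Id genes, 0.15 for the 3 Hes genes and -0.01 for the 3 Hey genes. The plot of FPKM by mouse shows that Id2 alone had groups that did not overlap, a split shown by 21.1% of all genes tested (12.9% higher and 8.26% lower in mutants).

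**Figure D1:**
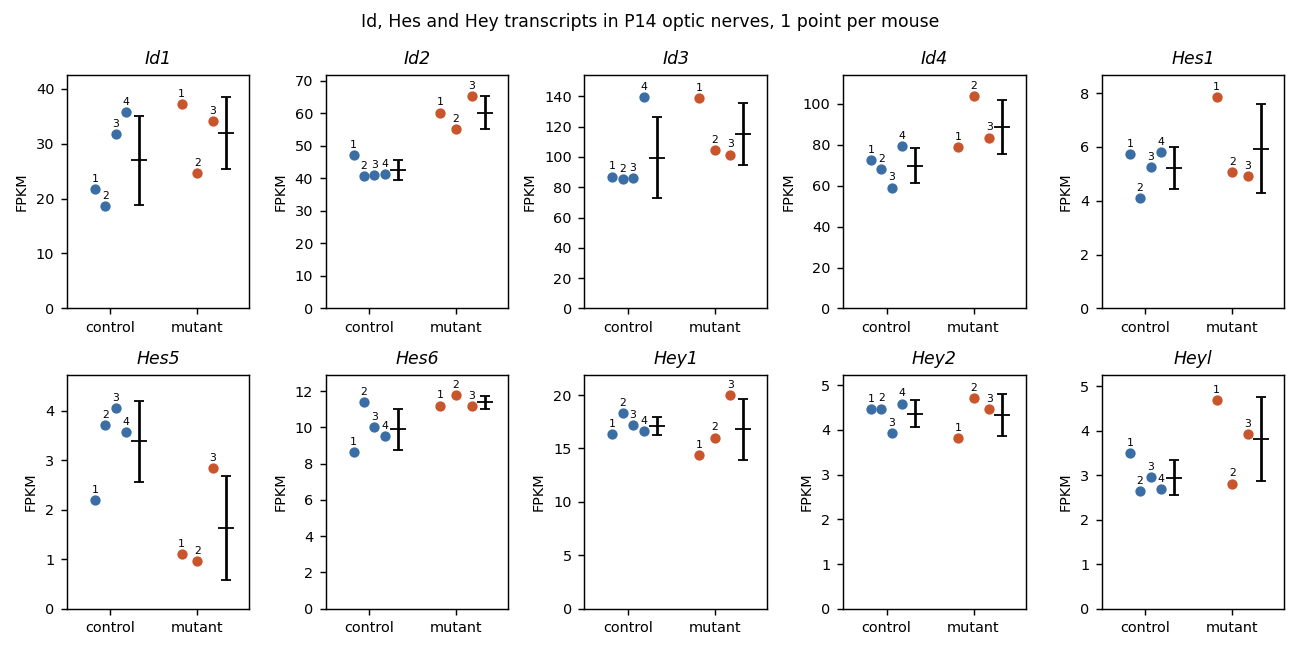
FPKM of the 10 genes in each mouse (points, numbered by replicate; 4 controls in blue, 3 mutants in orange), with group mean and SD in black and every axis starting at 0. For Id2 the 3 mutants, from 54.97 to 65.21, lie above the controls, from 40.65 to 47.11, while for Hes5 mutant 3 at 2.832 lies above control 1 at 2.193.

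FPKM is corrected for gene length, so levels can be set side by side. In controls the order of mean levels was Id3, Id4, Id2, Id1, Hey1, Hes6, Hes1, Hey2, Hes5 and Heyl, from 99.5 FPKM down to 2.95 FPKM. The ranges of neighbours were separate from Id3 down to Hes1, and those of Hes1 and Hey2, Hey2 and Hes5, and Hes5 and Heyl overlapped. In mutants the order was the same except that Hes5 stood last, behind Heyl, with a range that overlapped that of Heyl. The ranges of Id3 and Id4 also overlapped in mutants, as did those of Hey2 and Heyl. The Id family thus made up the 4 most abundant members in both genotypes.

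Id2, a partner and inhibitor of E proteins (ENSMUSG00000020644, chr12:25093801-25096092 on GRCm38, minus strand), had FPKM values of 47.11, 40.65, 40.98 and 41.19 in controls 1 to 4 and of 60.13, 54.97 and 65.21 in mutants 1 to 3. Every mutant was above every control, and control 1 stood apart from 3 closely grouped controls. The means were 42.5 ± 3.09 (SD, n = 4) and 60.1 ± 5.12 (SD, n = 3), or 141% of the control mean in mutants. The log2 fold change was 0.49 (SE 0.0796, 95% interval 0.31 to 0.68), with an adjusted p of 0.0253 in limma. It was 0.45 with an adjusted p of 0.0306 by edgeR on recovered reads, which called 2.89% of genes (1.18% higher), and 0.45 with an adjusted p of 6.69e-05 by DESeq2, which called 12.1% (6.62% higher). Id2 was covered by 1638 to 2730 reads per sample. When 1 mouse was left out, the fold change stayed between 0.43 and 0.56, and it missed the threshold of limma without control 2 (adjusted p = 0.0702), control 3 (0.0981), control 4 (0.0577) or mutant 3 (0.0904). It also missed it with no filter on low values (0.0589), where 0.492% of genes were called.

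Astrocyte markers, like Id2, were higher in mutants, while the lists of OPC and OL markers had negative medians. Of 10 astrocyte markers, 4 were higher past the threshold in mutants (Aldh1l1, Slc1a2, Gja1 and Aldoc), none was lower, and the median log2 fold change was 0.53. Their summed FPKM was 3051 to 3494 in controls and 4021 to 4810 in mutants, and none of them was at 0. In a nerve taken whole, more cells of a type, more RNA per cell and a smaller share of RNA from other cells cannot be told apart. Set against this sum in the same mouse, Id2 had 14.4, 12.9, 13.4 and 11.8 FPKM per 1000 FPKM of astrocyte markers in controls and 15.0, 11.5 and 13.6 in mutants. By this ratio, which was chosen after the values were seen, the groups overlapped, with means of 13.1 in controls and 13.3 in mutants. Gfap, with means of 1520 and 1956 FPKM, weighed most in the astrocyte sum. Against the summed OPC markers the Id2 groups did not overlap, as before any ratio. There were 228 to 258 FPKM of Id2 per 1000 in controls and 360 to 420 in mutants. The OPC sum leaned lower in mutants, which by itself raises this ratio. Ratios were formed for these lists only, and the endothelial sum was also higher in mutants (194 to 219 against 159 to 187 FPKM). The ratios therefore single out no cell type.

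The other 3 Id genes had higher means in mutants and overlapping groups, and none passed the threshold. Within each of the 3 pairs of the same replicate number, Id1, Id3 and Id4 were higher in the mutant. For Id3 and Id4 every mutant was above controls 1 to 3, so any such pairing gives this. With the replicate number as a block, control 4 has no partner. The log2 fold changes were then 0.42 for Id1 (adjusted p = 0.0819 in limma), 0.40 for Id3 (0.0533) and 0.41 for Id4 (0.0561). None of them passed the threshold. The same fold changes came from the fit without control 4, so the pairing did not alter their size. Id4, which also dimerizes with E proteins and is known to restrain OL differentiation, lies on the plus strand at chr13:48261427-48264036. It had 72.47, 68.13, 59.1 and 79.45 FPKM in controls and 78.88, 103.7 and 83.59 FPKM in mutants. Mutant 1 was just below control 4, and the other mutants were above every control. The log2 fold change of Id4 was 0.34 (SE 0.119, 95% interval 0.07 to 0.61, adjusted p = 0.132 in limma). It ran from 0.23 to 0.42 when 1 mouse was left out. The gene models A330033J07Rik and Gm49291 overlap Id4 on the other strand in GENCODE vM21 and were not measured here. Whether the counting used the strand is not given in the sources used here, so reads of Id4 and of these models may not have been separated.

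Id3, the most abundant member, lies at chr4:136143497-136145392 on the plus strand. It had 87.08, 85.24, 86.17 and 139.6 FPKM in controls and 138.8, 104.7 and 101.6 FPKM in mutants. Controls 1 to 3 were closely grouped below every mutant, and control 4 was above every mutant. The log2 fold change was 0.23 (SE 0.184, adjusted p = 0.480 in limma), and without control 4 it was 0.40 (adjusted p = 0.123). Without mutant 1 it was 0.085 (adjusted p = 0.843), and without control 1, 2 or 3 it was 0.16 to 0.17.

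Id1, at chr2:152736251-152737410 on the plus strand, is with Id3 a sensitive readout of BMP signalling in many cells. It had 21.69, 18.68, 31.67 and 35.72 FPKM in controls and 37.11, 24.64 and 34.02 FPKM in mutants. The controls fell into a lower and an upper pair, and the range of mutants lay across the upper pair. Its log2 fold change was 0.27 (SE 0.228, adjusted p = 0.501 in limma), with a 95% interval from -0.25 to 0.78 that reaches past the Id2 estimate on the upper side. It was 0.11 without control 2, 0.15 without mutant 1, 0.42 without control 4 and 0.44 without mutant 2. Spread within each genotype was wider for Id1 and Id3 than for Id2 and Id4. In controls the coefficient of variation was 29.9% for Id1 and 26.9% for Id3, against 7.28% for Id2 and 12.2% for Id4. In mutants it was 20.3% for Id1 and 17.9% for Id3, against 8.52% for Id2 and 14.9% for Id4.

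The summed Id RNA was 228, 213, 218 and 296 FPKM in controls 1 to 4 and 315, 288 and 284 FPKM in mutants 1 to 3. Control 4 lay among the mutants, and the other controls lay below them. Id3 gave the largest share of the sum in each mouse, from 35.7% to 47.2%. The share of Id2 was 20.6%, 19.1%, 18.8% and 13.9% in controls and 19.1%, 19.1% and 22.9% in mutants, with overlapping ranges. The make-up of the Id pool therefore did not separate the genotypes by Id2. The share of Id4 was 26.8% to 32.0% in controls and 25.05% to 36.0% in mutants, and that of Id1 was 8.78% to 14.5% and 8.56% to 11.96%. Id1, Id3 and Id4 overlapped between genotypes before any ratio, and also did so against the astrocyte markers of the same mouse. Against the OPC markers Id4 did not overlap, with 329 to 453 FPKM per 1000 in controls and 495 to 680 in mutants. The OPC sum leaned lower in mutants, which by itself pushes this ratio up.

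**Figure D2:**
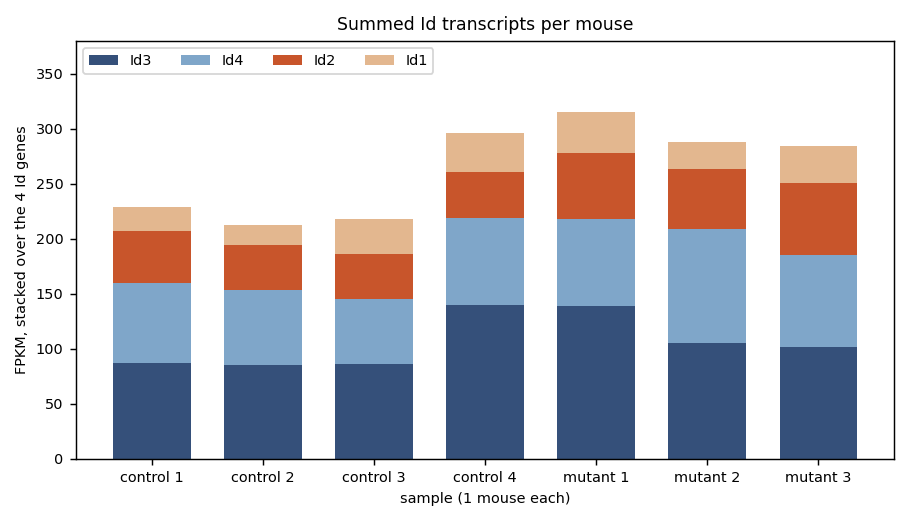
FPKM of Id3, Id4, Id2 and Id1 stacked for each mouse, with the axis starting at 0. The stack reaches 284 to 315 in mutants and 296 in control 4, and 213 to 228 in the other controls.

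Hes5, a Notch target that represses bHLH activators of differentiation (ENSMUSG00000048001, chr4:154960923-154962371, plus strand), had the largest fold change of the 10 members in size, and its direction was down. It had 2.193, 3.701, 4.049 and 3.562 FPKM in controls and 1.099, 0.9603 and 2.832 FPKM in mutants. Mutants 1 and 2 were below every control, while mutant 3 lay above control 1, the lowest control. The means were 3.38 ± 0.815 FPKM (SD, n = 4) and 1.63 ± 1.04 FPKM (SD, n = 3), or 48.3% of the control mean in mutants. The difference on the log2 scale was -0.94 (SE 0.294, 95% interval -1.61 to -0.27), and the adjusted p of 0.106 in limma missed the threshold. With the replicate number as a block, a fit in which control 4 has no partner and adds nothing to the difference, the fold change was -0.91 and passed (adjusted p = 0.0435 in limma). That fit called 1.94% of all genes as lower and 6.42% as higher.

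Tests on recovered reads split on Hes5. DESeq2 gave a log2 fold change of -1.11 with an adjusted p of 0.0343, and called 5.51% of genes as lower, while edgeR gave -1.12 with an adjusted p of 0.119 and called 1.72% as lower. These tests rest on few reads, 121, 185, 224 and 142 in controls and 50, 38 and 99 in mutants. Without mutant 3 the fold change was -1.32 (adjusted p = 0.0736 in limma), and in the other fits without 1 mouse it lay between -1.11 and -0.72. The gene model Gm20421, not measured here, overlaps Hes5 on the other strand, with the same limit as for Id4. Set against summed OPC markers, Hes5 had 11.99, 22.8, 22.5 and 20.3 FPKM per 1000 in controls and 7.67, 6.29 and 16.8 in mutants. These groups overlapped, as they did before any ratio, with means of 19.4 in controls and 10.2 in mutants. Against astrocyte markers the Hes5 groups did not overlap, with 0.672 to 1.33 in controls and 0.201 to 0.589 in mutants. The astrocyte sum was higher in mutants, which by itself lowers this ratio. The summed OPC markers themselves were 162 to 183 FPKM in controls and 143 to 169 in mutants, highest among mutants in mutant 3, and 1 of the 6, Cspg4, was lower past the threshold. Their part in the Hes5 values was not tested further.

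Hes1, the broader Notch target of the family, lies on the plus strand at chr16:30065340-30067796. It had 5.738, 4.104, 5.255 and 5.798 FPKM in controls and 7.857, 5.051 and 4.903 FPKM in mutants. Mutant 1 was the highest of all samples, and the other mutants lay inside the control range. Its log2 fold change was 0.15 (SE 0.175, adjusted p = 0.632 in limma), and without mutant 1 it turned to -0.053. Hes5 made up 27.7%, 47.4%, 43.5% and 38.1% of the summed Hes1 and Hes5 FPKM in controls and 12.3%, 15.97% and 36.6% in mutants. By this share too, mutant 3 lay with the controls and mutants 1 and 2 lay below them.

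Hes6, at chr1:91411483-91413222 on the minus strand, was near-constant in mutants. It had 8.661, 11.38, 10 and 9.516 FPKM in controls and 11.2, 11.79 and 11.18 FPKM in mutants, and control 2 kept the groups from separating. Its log2 fold change was 0.20 (SE 0.0951, 95% interval -0.01 to 0.42, adjusted p = 0.231 in limma).

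The Hey genes, Notch targets best known from arteries and mural cells, showed no difference past the threshold. Hey1, at chr3:8663359-8667256 on the minus strand, had 16.34, 18.31, 17.19 and 16.62 FPKM in controls and 14.4, 16.02 and 19.97 FPKM in mutants. The mutants spread to both sides of the controls. The log2 fold change of Hey1 was -0.04 with a 95% interval from -0.28 to 0.20, and without mutant 1 it turned to 0.063.

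Hey2, at chr10:30832359-30842801 on the minus strand, had 4.47, 4.474, 3.925 and 4.584 FPKM in controls and 3.817, 4.706 and 4.47 FPKM in mutants. The groups lay over each other. Its log2 fold change was -0.01 with an interval from -0.24 to 0.22, and its sign turned in the fit with the replicate block (0.010). For Hey1 and Hey2 the intervals leave out a change as large as the Id2 estimate in either direction.

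Heyl, at chr4:123233556-123249875 on the plus strand, had 3.499, 2.649, 2.957 and 2.689 FPKM in controls and 4.698, 2.815 and 3.933 FPKM in mutants. Mutants 1 and 3 were above every control, and mutant 2 lay inside the control range. Its log2 fold change was 0.31 (SE 0.162, 95% interval -0.06 to 0.67, adjusted p = 0.280 in limma). It was 0.16 without mutant 1 and 0.48 without mutant 2. The sums of endothelial markers were 159 to 187 FPKM in controls and 194 to 219 in mutants, those of mural markers 87.2 to 125 and 122 to 135. No marker of either list passed the threshold, with medians of 0.32 and 0.18. With the replicate block, Flt1 and Cdh5 of the endothelial list and Pdgfrb of the mural list passed as higher. The mural median ran from 0.10 without control 4 to 0.37 without control 3.

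**Figure D3:**
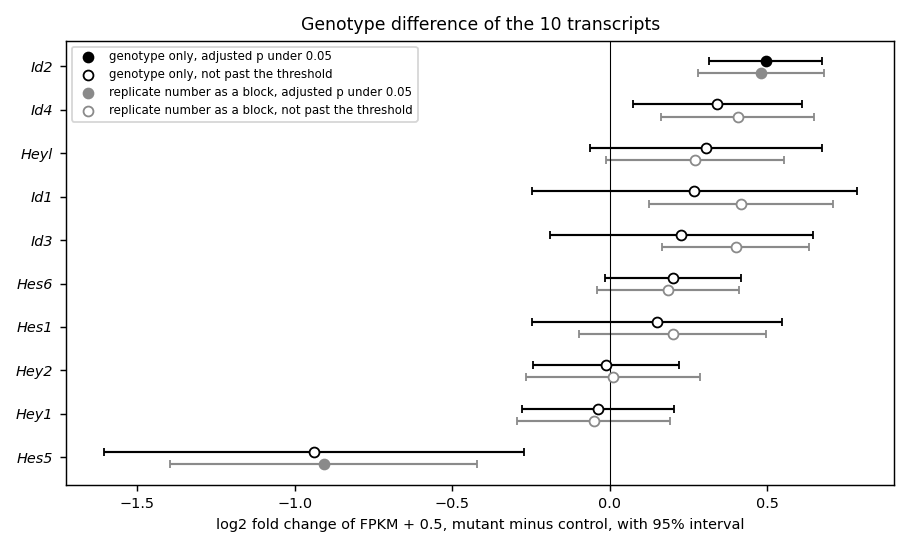
Log2 fold change of FPKM + 0.5, mutant minus control, with 95% interval, for the 10 genes, from the fit with genotype only (black) and with the replicate number as a block (grey); filled points have an adjusted p under 0.05. Id2 at 0.49 is filled in both fits, and Hes5 at -0.94 and -0.91 is filled in the fit with the block.

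The 3 mutants did not order the members alike. Mutant 1 was the highest mutant for Id1, Id3, Hes1 and Heyl and the lowest for Id4, Hey1 and Hey2. Mutant 2 was the highest for Id4, Hes6 and Hey2 and the lowest for Id1, Id2, Hes5 and Heyl. Mutant 3 was the highest for Id2, Hes5 and Hey1 and the lowest for Id3, Hes1 and Hes6. For Id1, Id3, Hes1 and Hes5 the spread within 1 genotype was wide, and the coefficient of variation of Hes5 in mutants reached 64.0%, against 24.1% in controls.

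The profile of Id2 over the 7 samples was most like those of Aldh1a1, Serhl, Rnase4, Phyh and Fam129a. Likeness was the root mean square distance between log2 levels relative to the control mean, which was 0.0499 for Aldh1a1, a retinaldehyde dehydrogenase, and 0.0694 for Fam129a, the least alike of the 5. Their log2 fold changes ran from 0.45 for Phyh, an enzyme of peroxisomal fatty acid breakdown, to 0.56 for Fam129a. Since these genes were chosen for a profile like that of Id2, the values are a description.

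Signalling genes around the members were read from 11 lists with 92 genes, of which 80 were tested. In these, 1 gene was higher and 3 were lower past the threshold, or 5% against 2.62% of all genes, with a median log2 fold change of 0.10. With the replicate block the 4 genes kept their calls and 13 were called, 10 higher and 3 lower, or 16.2% against 8.36% of all genes. Each of the 4 missed the threshold with no filter on low values and in 5 or 6 of the 7 fits without 1 mouse.

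On the BMP side, Bmpr1a, a type I receptor, was higher. It had 55.11, 46.99, 57.22 and 55.41 FPKM in controls and 71.48, 70.74 and 75.0 FPKM in mutants, without overlap. The fold change of Bmpr1a was 0.43 on the log2 scale (SE 0.0757, adjusted p = 0.0320 in limma). Of the 8 BMP receptors tested it was the most abundant, 5 had groups that did not overlap, each higher in mutants as in 12.9% of all genes, and the list median was 0.22. The ligands had a median of 0.59 over the 5 tested of 11, all with positive fold changes, and none passed. Bmp7, the most abundant, had 49.8 ± 6.25 FPKM in controls and 77.4 ± 22.3 FPKM in mutants (adjusted p = 0.0958 in limma). It passed with the replicate block (adjusted p = 0.0251 in limma), as did Bmp5 (0.0326) and Bmp6 (0.0251). Mutant 1 was the highest sample for all of these, with 100.9 FPKM of Bmp7 against 56.61 and 74.79 in mutants 2 and 3. Without mutant 1 the median of the ligands was 0.22. Bmp3, Bmp8a, Gdf2, Gdf5, Gdf6 and Gdf7 were below the filter.

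Among the inhibitors of BMP signalling, Smad7, the inhibitory Smad that acts at the receptor, was lower. It had 33.96, 40.63, 38.2 and 36.51 FPKM in controls and 27.86, 29.98 and 27.16 FPKM in mutants, again without overlap. The difference was -0.39 on the log2 scale (SE 0.0745, adjusted p = 0.0374 in limma). The median of the 11 inhibitors tested of 13 was 0.30, of opposite sign to Smad7, and without mutant 1 it was 0.12. Fstl1 of this list passed as higher with the replicate block (adjusted p = 0.0405 in limma). Nbl1, a secreted antagonist of the DAN family and the most abundant of the list, had 139 ± 19.8 FPKM in controls and 210 ± 59.3 FPKM in mutants (adjusted p = 0.105 in limma, and 0.0341 with the replicate block). The 4 Smads that carry the signal had a median of 0.19, and the most abundant, Smad4, had 18.5 and 21.9 FPKM (adjusted p = 0.205 in limma). Smad9 passed as higher with the replicate block (adjusted p = 0.0288 in limma). Mutant 1 was the highest sample for Fstl1 (265.3 FPKM), Nbl1 (277.9 FPKM) and Smad9 (5.732 FPKM).

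On the Notch side, Cntn1, the adhesion protein contactin-1 known as a non-classical Notch ligand, was lower. It had 133.5, 108.3, 119.4 and 110.4 FPKM in controls and 65.41, 78.4 and 85.48 FPKM in mutants, and the groups did not overlap. On the log2 scale the difference was -0.63 (SE 0.105, adjusted p = 0.0274 in limma). Which cells of the nerve gave the Cntn1 RNA was not measured. The 7 ligands had a median of 0.01 that turned to -0.038 without mutant 3, and no classical Dll or Jag ligand passed. The 4 receptors had a median of 0.14, and of 0.045 without control 2. Notch2, the most abundant receptor, had 22.2 ± 4.90 FPKM in controls and 34.2 ± 11.7 FPKM in mutants (adjusted p = 0.165 in limma, and 0.0251 with the replicate block). Of Notch2, mutant 1 had the most of all samples, 47.33 FPKM, against 24.95 and 30.43 in mutants 2 and 3. The processing list had a median of 0.10 and no call. With the replicate block Aph1b of this list, a subunit of gamma-secretase, passed as higher (log2 fold change 0.72, adjusted p = 0.0232 in limma), and its FPKM of 6.518 to 10.24 in controls and 11.5 to 12.86 in mutants did not overlap. Its most abundant gene, Psenen, another subunit, had 70.4 and 69.2 FPKM. The nuclear and feedback list had a median of 0.14, of 0.056 without mutant 1, and no call. Its most abundant gene, Dtx3, of the deltex family, had 60.4 and 69.5 FPKM (adjusted p = 0.205 in limma).

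The dimer partners included 1 call, Olig2, the bHLH factor that defines the OL lineage and whose promoter drives the Cre. It had 68.2, 73.41, 80.8 and 73.08 FPKM in controls and 47.91, 56.78 and 59.64 FPKM in mutants, without overlap. The log2 fold change of Olig2 was -0.43 (SE 0.0884, adjusted p = 0.0439 in limma). Mutants alone carry the Olig2-driven Cre, so its part in this value cannot be told apart from the loss of Fasn. Olig1, the most abundant partner, had 283.5 and 227.5 FPKM (log2 fold change -0.31, adjusted p = 0.127 in limma). The E proteins were near level: Tcf12 had 79.6 and 79.1 FPKM, and Tcf4 had 78.9 and 80.7 FPKM. The partners had a median of -0.06 over 6 genes. The corepressors, 8 genes led by Aes, a short Groucho protein with 166 and 148 FPKM, had a median of -0.17 and no call. The other Hes-like factors had a median of 0.30 over the 3 tested of 6. Bhlhe40, the most abundant of them, had 19.9 and 24.2 FPKM (adjusted p = 0.267 in limma, and 0.0471 with the replicate block), and Helt was listed at 0 in every sample.

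**Figure D4:**
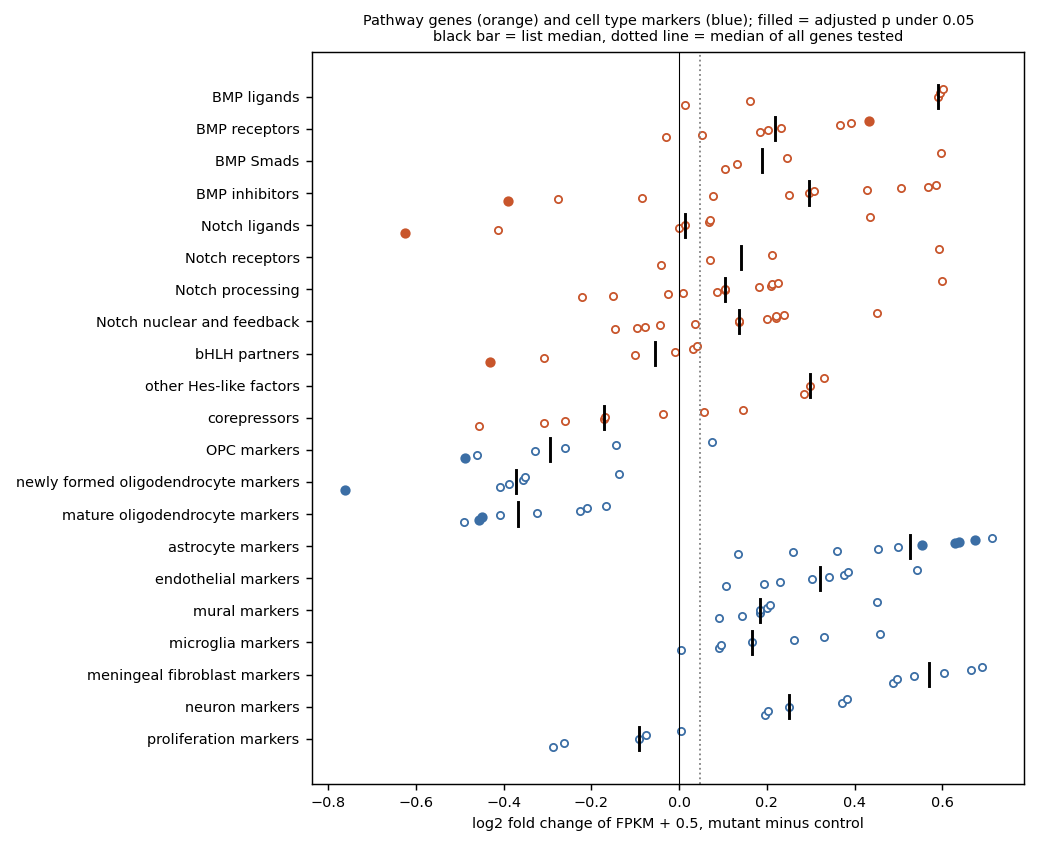
Log2 fold change of FPKM + 0.5, mutant minus control, for each tested gene of the 11 pathway lists (orange) and 10 marker lists (blue); filled points have an adjusted p under 0.05, black bars are list medians and the dotted line is the median of all genes, 0.05. The astrocyte markers lie to the right, with a median of 0.53, and the mature OL markers to the left, with a median of -0.37.

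The remaining marker lists place these values in the tissue. Mature OL markers summed to 56558 to 64317 FPKM in controls and 41183 to 52710 in mutants, with 2 of 8 lower past the threshold, Mag and Cnp, and 0 of 8 with the replicate block. Newly formed OL markers had a median of -0.37 with 1 of 6 lower, Tmem2, and 4 of 6 with the replicate block, and OPC markers a median of -0.29, with C1ql1 also lower with the block. Microglial, meningeal fibroblast, neuronal and proliferation markers had no call, with medians of 0.17, 0.57, 0.25 and -0.09. When 1 mouse was left out these medians ran from 0.064 to 0.27, 0.30 to 0.74, 0.026 to 0.53 and -0.19 to 0.079. The lowest value came without mutant 3 for the microglial and neuronal lists and without mutant 1 for the meningeal list, and the proliferation median was above 0 without control 1 alone. The meningeal sum was 4273 FPKM in mutant 1 and 1717 to 2581 in the other samples. Mutant 1 was also the highest sample for Id1, Hes1 and Heyl. So it was for Bmp5, Bmp6, Bmp7, Smad9, Fstl1, Nbl1, Notch2, Aph1b and Bhlhe40. These pathway genes were called higher with the replicate block, as was Bmpr1a, for which mutant 3 was highest. With the replicate block, 8 of the 10 astrocyte markers and 4 of the 6 meningeal markers were higher past the threshold. So were Csf1r of the microglial and Tubb3 of the neuronal list. The fit with the block called 6.42% of all genes as higher and 1.94% as lower. The part of these cell types in the Id, Hes and Hey values was not tested beyond the ratios given above. Their part in the pathway gene values was not tested.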

How the data were processed

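RNA of 7 P14 optic nerve samples, 1 per mouse, was sequenced from stranded poly-A libraries in single end mode. Per the submitters' processing notes and methods, reads were aligned with STAR 2.5.1b to GRCm38 and quantified per gene with RSEM 1.2.22. The authors deposited 1 table with, for each sample, a FPKM value and a normalized count, a signal that is the RSEM count divided by a size factor whose method is not given in the sources used here. The table's columns of the authors' own comparison (log2 ratio, p-value, FDR) were not used.

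The members and the gene lists were chosen with earlier results of these data known. All 10 members, Fasn, list genes past the threshold, the most abundant tested gene of each pathway list and the 5 genes most like a called member are named. Names beyond this rule (called markers, genes called with the block, genes below the filter, E proteins) were chosen after their values were seen. The test was limma-trend (limma 3.58.1, R 4.3.3) on log2(FPKM + 0.5) with genotype as the only term, two-sided, with a minimum FPKM of 0.5 in no fewer than 3 samples, which left 13866 genes, with Benjamini-Hochberg adjustment and a threshold of 0.05. Samples are separate mice per the labels, and their litters are not given.

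Reads were recovered by dividing normalized counts by the value of 1 read in each sample. Of low values (0.5 to 10 reads), 73.3% to 79.3% were whole within 0.02 reads, the rest being RSEM fractions, and all were rounded for edgeR 4.0.16 (quasi-likelihood) and DESeq2 1.42.0. The median chi-square per gene between samples of a genotype was 2.15 to 6.37, above the 0.455 of counting noise, so each sample was kept. Samples with the same replicate number deviated together from their group means (correlations 0.168, 0.409 and 0.270), while those of different numbers ran from -0.353 to 0.205. Deviations from a group mean balance out within the group, so part of this contrast is built in. Mutant 1 also went further with control 4 (0.205) than with control 1 (0.168). The labels do not say what the numbers stand for. A fit that blocks on this number is thus an alternative only. It was set beside results whose call it changed and beside some whose call it kept, such as Id1, Id3, Id4 and Hey2. Scripts were tested on simulated data.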

Additional observations from a re-analysis of the deposited data

Results flagged for a closer look

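Among the members, Fasn and the 4 called pathway genes, 15 in all, the FPKM of the 4 controls was searched for a sample set apart from the rest, and 2 were found where chance alone flags about 1 group in 20. Id2 in control 1 was 47.11 FPKM, above the other controls at 40.65 to 41.19, with a gap of 0.916 of the group's range. Id3 in control 4 was 139.6 FPKM, above the other controls at 85.24 to 87.08, with a gap of 0.966 of the range. Without control 1 the log2 fold change of Id2 was 0.54 (adjusted p = 0.0418 in limma), and without control 4 that of Id3 was 0.40 (adjusted p = 0.123). Both gaps are past Dixon's limit for 4 samples, and the 3 mutants were too few for this search.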

How the results depend on the processing

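Over the 10 alternatives that keep all mice, the log2 fold change of Id2 ran from 0.42 to 0.50 and missed the threshold only with no filter on low values. That of Hes5 ran from -1.25 to -0.78 and passed with the replicate block and with DESeq2. Genes called, 363 as reported, were 95 with no filter, 1159 with the replicate block and 1682 with DESeq2, and 6 to 907 when 1 mouse was left out. They were 60, 15, 6 and 117 without controls 1 to 4, and 186, 907 and 6 without mutants 1 to 3. Members called, 1 as reported, were 0 with no filter, 2 with the replicate block, 2 with DESeq2, and 0 to 1 without 1 mouse. Pathway genes called, 4 as reported, were 0 with no filter, 13 with the replicate block, 16 with DESeq2, and 0 to 7 without 1 mouse. Of all genes tested, 2.62% were called as reported, 0.492% with no filter, 8.36% with the replicate block and 12.1% with DESeq2. The causes were not tested. The sign turned for Hey2 with the replicate block (0.010), and without 1 mouse for Hes1 (-0.053 to 0.26), Hey1 (-0.17 to 0.063) and Hey2 (-0.068 to 0.067). The replicate block changed no member's call other than that of Hes5. No scaling moved the median of all genes by over 0.1. Depth limits Hes5 most, with 38 to 224 reads per sample.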
